A study of Mus musculus with 2 samples.

Results

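The autophagy and mitophagy genes described here are a list of 34 mouse genes, from the receptors that mark mitochondria for removal to the kinases, conjugation enzymes and membrane proteins of the autophagosome and the lysosome. They were measured in pre CFU-E, erythroid progenitors that come before the colony forming unit-erythroid, by matching transcript accessions of the array probes to the gene symbols. All 34 were found among the 20660 genes named on the array, through 49 of 27235 named probes. Bone marrow came from C57BL/6 WT mice and from ESAM-KO mice of the same strain, which lack ESAM, an adhesion molecule of endothelial cells and hematopoietic stem cells, throughout the body. The mice of both genotypes were 8 to 12 weeks old and had received 120 mg/kg of 5-FU, a thymidylate synthase inhibitor that kills cycling marrow cells, 8 days before. Marrow of 3 mice per genotype was pooled, and cells without lineage markers or Sca1 that carried c-Kit, endoglin and CD150, with low CD41 and low or absent FCgRII/III, were sorted. Amplified RNA of each pool was hybridised to 1 Agilent SurePrint G3 array, which leaves neither a spread between mice nor a test, and differences between the genotypes cannot be told apart from those between pools, sorts or amplifications.

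Autophagy encloses cytoplasm in a double membrane, the autophagosome, and delivers it to the lysosome for breakdown. A kinase complex built on ULK1 or ULK2 starts the process, a lipid kinase complex around Beclin 1 marks the membrane with a phosphoinositide, and ubiquitin-like enzymes attach proteins of the ATG8 family to the growing membrane, where they bind cargo receptors. Maturing red cells use this route to clear their mitochondria, and the outer membrane receptor NIX, the product of Bnip3l, is the one best known for that step in reticulocytes.

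Intensity was read as the scanner software's processed signal, from which local background has been removed, with no scaling across arrays. Ratios are given as the log2 of ESAM-KO over WT after each array was divided by its 75th percentile, 201.4 for WT and 251.1 for ESAM-KO, and each gene is given by its brightest probe unless another is named. Intensities are given in the order WT, ESAM-KO, followed by the log2 ratio. This scaling lowers every log2 ratio by 0.32. The error given with a ratio is that of the scanner software and covers spot noise only. The probe of the targeted gene, Esam, read 27.4 in WT and 20.6 in ESAM-KO, giving a log2 ratio of -0.73 ± 0.31, where the dimmest probes that counted as well above background read 12.6 and 13.2. Where this probe lies relative to the deleted stretch is not given in the sources used here, so it does not check the genotype labels. Of the sort markers, Kit read 3414 and 3326 and Eng 375 and 269, while Slamf1, which encodes CD150, was near background at 17.8 and 23.0. Ly6a, which encodes Sca1 and was selected against, read 61.1 in WT and was not well above background in ESAM-KO, at 12.3. The erythroid regulators Gata1, Klf1 and Epor were all well above background on both arrays, with log2 ratios of -0.34, -0.32 and -0.10. They come from a list of 18 erythroid genes, of which 8 were more than 2-fold lower in ESAM-KO and none higher. Nfe2, at -1.34, and Hba-a1, at -2.26, were among the lower ones.

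All 34 genes had a ratio, and 33 of them were well above background on both arrays. In ESAM-KO, 5 genes were lower by more than 2-fold, namely Atg9a, Map1lc3a, Pink1, Bnip3l and Optn, and 4 were higher, namely Ulk2, Rb1cc1, Tfeb and Becn1. The 5 lower genes are 14.7% of the list, where 8.43% of all 14136 genes with a ratio were lower by more than 2-fold, and the 4 higher genes are 11.8%, where 6.99% of all genes were higher. Together 9 of 34 genes, or 26.5%, were past 2-fold, beside 15.4% of all genes. Ulk2 and Rb1cc1 count here through their brightest probes only, as the other probe of each was not higher. With the mean of the probes of a gene, 4 of the 34 were lower by more than 2-fold and 2 higher, beside 1090 and 983 of 14144 genes. The median log2 ratio was -0.26 for the list and 0.00 for all genes. In a sorted bulk sample, fewer cells of a type and less RNA per cell cannot be told apart. Below 0 were 23 of the 34 ratios, but 9 of these 23 turned positive without scaling between the arrays. Scaling also changed the split past 2-fold. It was 2 lower and 6 higher without scaling, beside 729 and 1804 of 14229 genes. With the median of the array as the scale it was 7 lower and 4 higher, beside 1513 and 751 of 14044 genes. With normexp background correction and quantile normalization, Atg9a and Map1lc3a were past 2-fold downward and Ulk2 upward, and the remaining 6 genes fell short of it. Of all 14131 genes with a ratio under that setting, 486 were lower and 236 higher. Ulk2, not well above background in WT, then lay at the threshold with a log2 ratio of 1.00, and Bnip3l just inside it at -0.99.

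**Figure D1:**
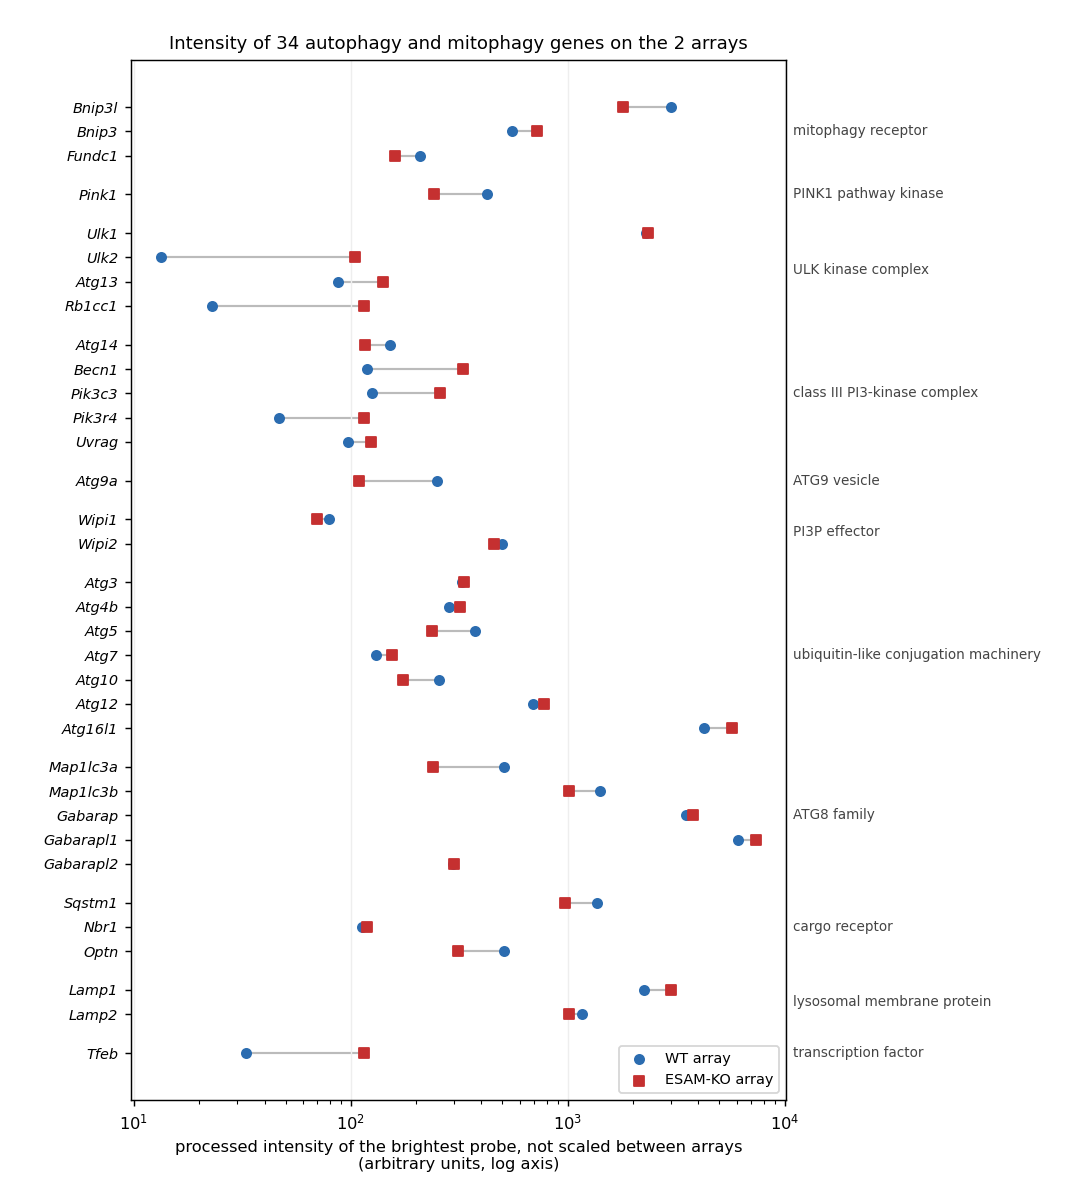
Processed intensity (arbitrary units, log axis, not scaled between arrays) of the brightest probe of each of the 34 genes on the WT array (circles) and on the ESAM-KO array (squares), grouped by role. Map1lc3a, Atg9a and Pink1 lie to the left in ESAM-KO. Ulk2, Rb1cc1, Tfeb, Pik3r4 and Becn1 lie to the right from WT intensities of 119 or less, and Pik3c3 from 125.

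Of the receptors that bind mitochondria directly, Bnip3l was lower and Bnip3 was not. The brightest probe of Bnip3l (NM_009761) read 2981 in WT and 1806 in ESAM-KO, giving a log2 ratio of -1.04 ± 0.20, or 2.06-fold lower. The value lies just past 2-fold, and the other probes of Bnip3l differed from it. One of them read 567 and 357, at -0.98, another 337 and 281, at -0.58, and the last 493 and 699.6, at 0.19. Bnip3, which encodes the closest relative of NIX and is known as a hypoxia-induced gene, read 551 and 718 at its brightest probe, a log2 ratio of 0.06 ± 0.20, and a dimmer probe gave 0.14. Fundc1, an outer membrane receptor that responds to hypoxia, read 208 and 160.1, at -0.70 ± 0.21. The ratio of Bnip3 was smaller than its scanner error, and those of Fundc1 and of 3 of the 4 Bnip3l probes lay below 0 by more than theirs.

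Pink1, which encodes a kinase that accumulates on damaged mitochondria, read 423 in WT and 241 in ESAM-KO. Its log2 ratio was -1.13 ± 0.21, a 2.19-fold lower level at its only probe. Without scaling, both Bnip3l and Pink1 were lower by less than 2-fold.

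In the ULK kinase complex, 2 of 4 genes were more than 2-fold higher in ESAM-KO by their brightest probes, and none was lower. Of all genes, 6.99% were higher and 8.43% lower. With the mean of the probes, Ulk2 was at 0.88 and Rb1cc1 at 0.86, both within 2-fold. Ulk2, one of the alternative catalytic subunits, had 13.3 on the WT array, not well above background, and 105 in ESAM-KO, at least 6.33-fold higher. Its other probe went the other way, from 20.8 in WT to 14.0, not well above background, in ESAM-KO, at least 1.86-fold lower. Rb1cc1, which encodes the scaffold FIP200, read 22.9 in WT and 115 in ESAM-KO, giving a log2 ratio of 2.01 ± 0.27, while its other probe read 47.9 and 48.8, at -0.29 ± 0.25. The direction for Ulk2 and Rb1cc1 therefore depended on the probe. For both genes the probe with the higher mean signal ranked first only through its ESAM-KO intensity and was the dimmer one on the WT array, so that the choice of probe was not independent of the ratio. Ulk1, the other catalytic subunit, was far above background on both arrays, at 2293 and 2351, and its log2 ratio was -0.28 ± 0.20. Atg13, the regulatory subunit, read 87.6 and 141, at 0.37 ± 0.21.

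In the class III PI3-kinase complex, 1 of 5 genes was more than 2-fold higher and none was lower, beside 6.99% and 8.43% of all genes. A further gene, Pik3r4, lay just inside 2-fold. Becn1, which encodes Beclin 1, read 119 in WT and 330.3 in ESAM-KO, giving a log2 ratio of 1.16 ± 0.21, or 2.23-fold higher. Pik3c3, the catalytic subunit VPS34, read 125 and 257 at its brighter probe, at 0.72 ± 0.21, and 65.2 and 152 at the dimmer one, at 0.90 ± 0.22. Both of its probes were higher in ESAM-KO, by ratios that differed by less than the scanner error. Pik3r4, the regulatory subunit VPS15, was at 0.99 ± 0.07. Its probe was printed as 10 spots, which read 37.4 to 55.1 with a median of 46.4 in WT and 101 to 137 with a median of 112 in ESAM-KO. The log2 ratio of the 10 spots had a range of 0.66 to 1.43 and an SD of 0.20, and 5 of the 10 were past 2-fold. This is a spread of spots on 1 array per genotype, not of mice. Over 199 probes with 9 or 10 usable spots above background on both arrays, the median SD was 0.12. Atg14 lay on the other side of 0 and Uvrag close to 0. Atg14, which brings the complex to the forming autophagosome, read 151 and 116, at -0.70 ± 0.21, and Uvrag, which takes its place on endosomes, read 96.9 and 124, at 0.04 ± 0.21.

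**Figure D2:**
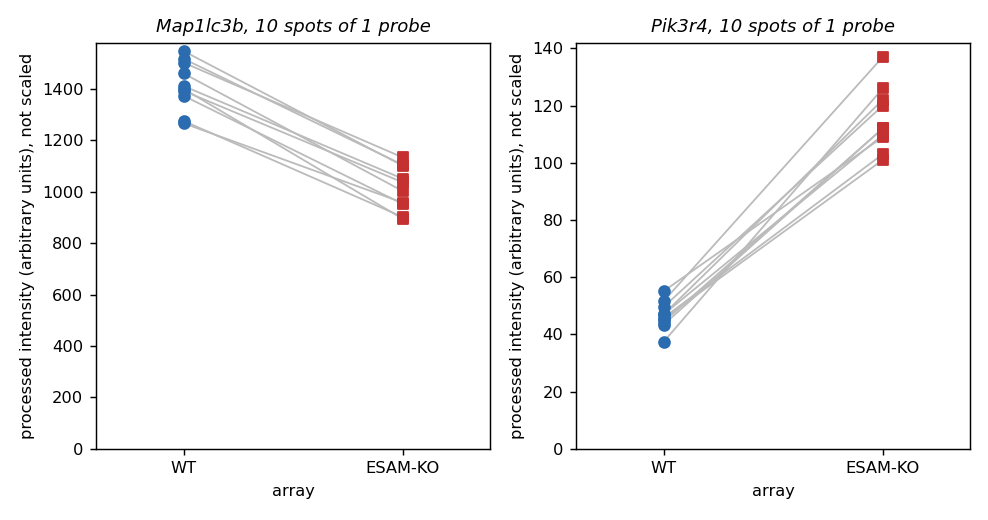
Processed intensity (arbitrary units, not scaled between arrays) of each of the 10 spots of the Map1lc3b probe and of the Pik3r4 probe on the WT and ESAM-KO arrays, with a line for each spot position. All 10 spots of Map1lc3b were lower on the ESAM-KO array and all 10 of Pik3r4 were higher, and the spread shown is that of spots on 1 array per genotype, not of mice.

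Atg9a had the largest difference downward of the list. It encodes the only transmembrane protein among the core autophagy factors, a lipid scramblase carried on small vesicles, and read 249 in WT and 109 in ESAM-KO, giving a log2 ratio of -1.50 ± 0.21, or 2.84-fold lower. The WIPI proteins, which read the phosphoinositide made by VPS34, were within 2-fold at their brightest probes. Wipi1 read 79.1 and 69.5, at -0.50 ± 0.22, but a second probe of nearly the same brightness read 92.6 and 49.0, at -1.24 ± 0.23. Wipi2 read 499 and 455, at -0.45 ± 0.20.

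None of the 7 genes of the ubiquitin-like conjugation machinery was past 2-fold, although Atg5 and Atg10 were, at -1.11 and -1.01, when the arrays were scaled to their medians. The one nearest to it was Atg5, which joins ATG12 in the conjugate that lipidates ATG8 proteins, with 373 in WT and 236 in ESAM-KO and a log2 ratio of -0.98 ± 0.21. Atg10, the enzyme that forms this conjugate, read 256 and 173, at -0.88 ± 0.21, but its dimmer probe read 28.2 and 161, at 2.19 ± 0.26, past 2-fold in the opposite direction, and the mean of both probes was 0.65. The other 5 genes stayed close to 0. Atg7, the activating enzyme, was at -0.07, Atg3, the transferring enzyme, at -0.30, Atg12 at -0.15, the protease gene Atg4b at -0.14, and Atg16l1, which guides the conjugate to the membrane, at 0.11, where it read 4264 and 5726. A dimmer probe of Atg12, with 41.2 and 32.5, gave -0.66.

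The ATG8 family holds the LC3 and the GABARAP genes, which differed in size of ratio. Map1lc3a and Map1lc3b were lower in ESAM-KO by several times the scanner error, and the 3 GABARAP genes lay within 0.30 of 0 on the log2 scale. Map1lc3a read 510.1 in WT and 239.5 in ESAM-KO, giving a log2 ratio of -1.41 ± 0.20, or 2.66-fold lower. Map1lc3b, the LC3 gene used most often as a marker of autophagosomes, read 1267 to 1548 over the 10 spots of its probe in WT, with a median of 1407, and 895 to 1134 in ESAM-KO, with a median of 1020.1. All 10 spot ratios were below 0, and their mean was -0.80 with an SD of 0.08, again a spread of spots and not of mice. Gabarap read 3513 and 3793, at -0.21 ± 0.20, and its second probe gave -0.13. Gabarapl1 read 6123 and 7411, at -0.04 ± 0.20, and Gabarapl2 295 and 299, at -0.30 ± 0.21. Without scaling, the LC3 genes were still lower in ESAM-KO by their intensities, whereas the GABARAP genes were slightly higher.

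The 3 cargo receptors of the list, which tie ubiquitin-marked cargo to ATG8 proteins, were all below 0. Of 6 further cargo receptors that are not on the list, 3 were below 0 and 3 above. Optn, which encodes optineurin, a receptor of the PINK1 pathway, read 509.8 in WT and 312 in ESAM-KO, giving a log2 ratio of -1.03 ± 0.20, or 2.04-fold lower. Sqstm1, which encodes p62, read 1369.9 and 974, at -0.81 ± 0.20. Nbr1 read 112 and 119, at -0.23 ± 0.21, and turned positive without scaling.

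**Figure D3:**
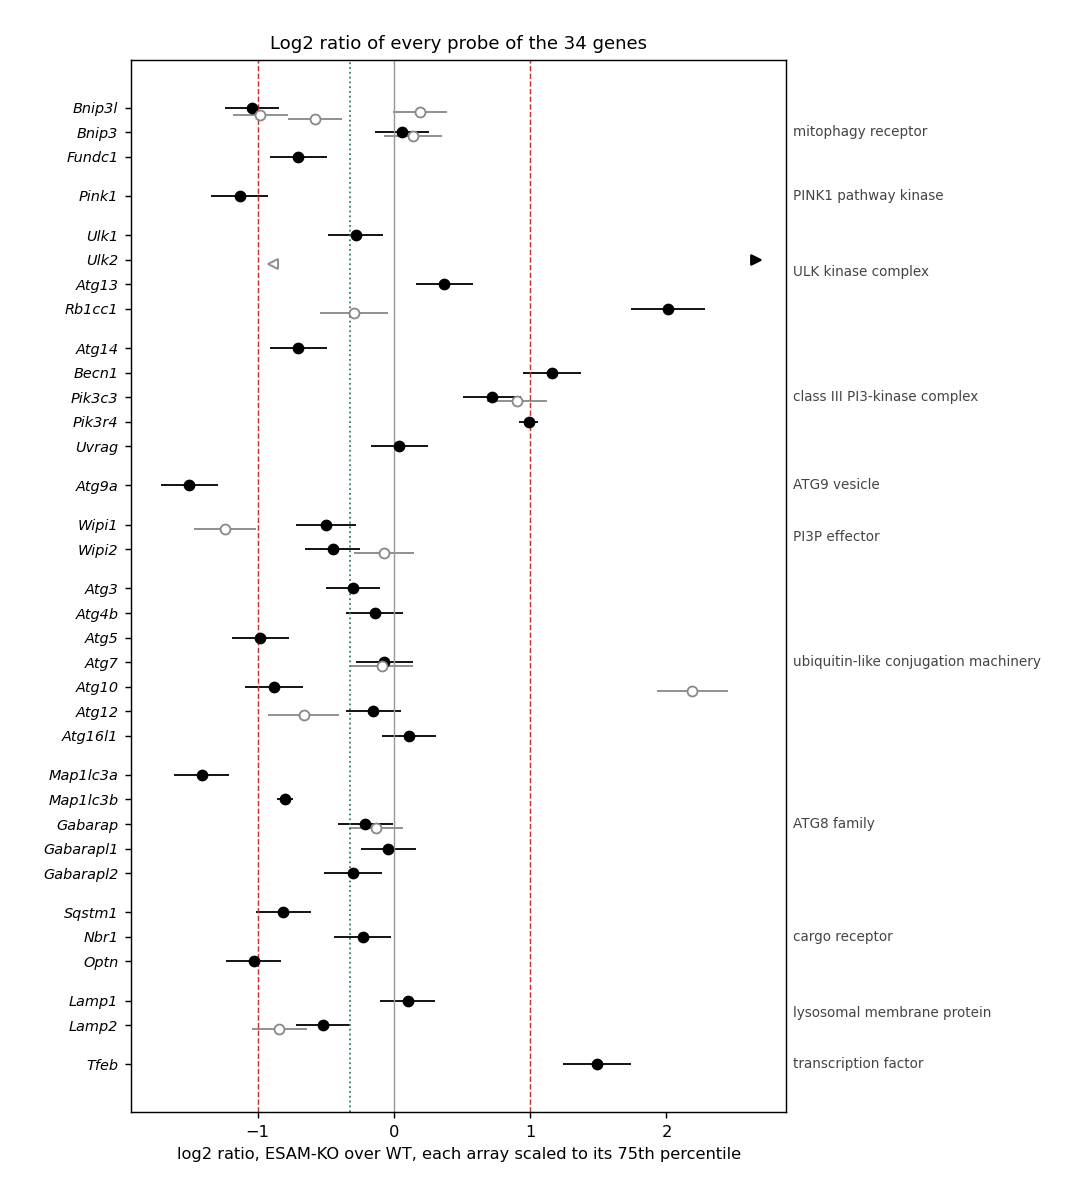
Log2 ratio of ESAM-KO over WT (horizontal axis, each array scaled to its 75th percentile) for each probe of the 34 genes, with filled black points for the brightest probe of a gene, open grey points for its other probes, bars for the scanner software's error, and triangles for ratios that are bounds. Red dashed lines mark 2-fold, and the green dotted line is where equal unscaled intensities lie, at a log2 ratio of -0.32. The probes of Ulk2, Rb1cc1 and Atg10 lie on both sides of 0 by more than their errors.

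At the lysosome, Lamp1 and Lamp2 encode the most abundant membrane glycoproteins, and LAMP2 is needed for fusion with autophagosomes. Lamp1 read 2242 and 2999, at 0.10 ± 0.20, and Lamp2 read 1168 and 1013, at -0.52 ± 0.20. A second Lamp2 probe, for the transcript NM_001017959, read 779 and 543, at -0.84 ± 0.20. Neither gene was past 2-fold. Tfeb encodes a transcription factor that switches on lysosomal and autophagy genes, and it was among the higher genes, with 32.8 in WT and 115 in ESAM-KO at its only probe, a log2 ratio of 1.49 ± 0.25, or 2.80-fold higher. Tfe3, the gene of a relative with overlapping targets, is not on the list and went the other way, with 3535 and 2027, at -1.12 and at -1.08 in its second probe.

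TFEB binds DNA with the core CACGTG, so the promoters of the list were searched for it, in windows of 250 bases before and 50 bases after the transcript start, from RefSeq on GRCm38.p6. The table holds 30 windows for 27 of the 34 genes. CACGTG, which reads the same on both strands, was found for 6 of the 27 genes, and in 7.15% of all 32851 windows. These are a count of genes and a share of windows, and a gene can have more than 1 window. The sequences are shown because they mark which genes of the list carry this core, with the matches in capitals, read along the strand of the gene.

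Lamp1, chr8:13159080-13159160, plus strand: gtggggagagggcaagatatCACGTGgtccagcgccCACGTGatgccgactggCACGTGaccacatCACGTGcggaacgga
Atg3, chr16:45158715-45158783, plus strand: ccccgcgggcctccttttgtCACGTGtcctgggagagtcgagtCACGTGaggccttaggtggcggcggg
Atg7, chr6:114670944-114670989, plus strand: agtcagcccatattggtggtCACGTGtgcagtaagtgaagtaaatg
Bnip3, chr7:138909589-138909634, minus strand: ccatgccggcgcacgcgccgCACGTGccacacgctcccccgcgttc
Atg5, chr10:44268305-44268338, plus strand: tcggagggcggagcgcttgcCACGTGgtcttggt
Atg14, chr14:47568420-47568455, minus strand: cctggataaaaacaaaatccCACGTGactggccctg

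Lamp1 held 4 matches, between 61 and 15 bases before the start, and Atg3 held 2. None of these 6 genes was past 2-fold, and their log2 ratios were 0.10 for Lamp1, -0.30 for Atg3, -0.07 for Atg7, 0.06 for Bnip3, -0.98 for Atg5 and -0.70 for Atg14. Of the 9 genes past 2-fold, 5 have a window in the table, and no match was found in those of Atg9a, Pink1, Optn, Ulk2 and Tfeb. The shorter core ACGTG of the hypoxia response element is part of every CACGTG match. It was found for 12 of the 27 genes on either strand, Bnip3 among them. The share of all windows, again not of genes, was 19.6%. AGATAA, a form of the GATA site, and the forkhead core TGTTTAC were searched on both strands. They were found in no window of the list, beside 11.2% and 3.65% of all windows. Other forms of the GATA site were not searched. A match here is a stretch of letters, and no binding was measured.

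Probes of the same gene did not always give the same ratio. Of the 12 genes with more than 1 probe, 8 had all probes with a ratio on the same side of 0, and 4 did not, namely Atg10, Rb1cc1, Ulk2 and Bnip3l. The probes of Atg7, Bnip3, Gabarap and Pik3c3 lay within 0.18 of each other on the log2 scale, whereas those of Ulk2, Atg10 and Rb1cc1 were 3.55, 3.07 and 2.30 apart. When every probe of a gene had to be past 2-fold in the same direction, Atg9a, Map1lc3a, Optn and Pink1 remained among the lower genes and Becn1 and Tfeb among the higher ones, and each of these 6 genes has only 1 probe.

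The share of genes past 2-fold depended on brightness. Among all genes well above background on both arrays, 9.58% of those in the dimmest quartile of mean signal were lower by more than 2-fold and 8.34% higher, compared with 1.84% and 0.793% in the brightest quartile. Rb1cc1 and Tfeb lay in the dimmest quartile, Becn1 and Atg9a in the next, and Map1lc3a, Pink1 and Optn in the third. Bnip3l was the only one past 2-fold of the 9 members in the brightest quartile.

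**Figure D4:**
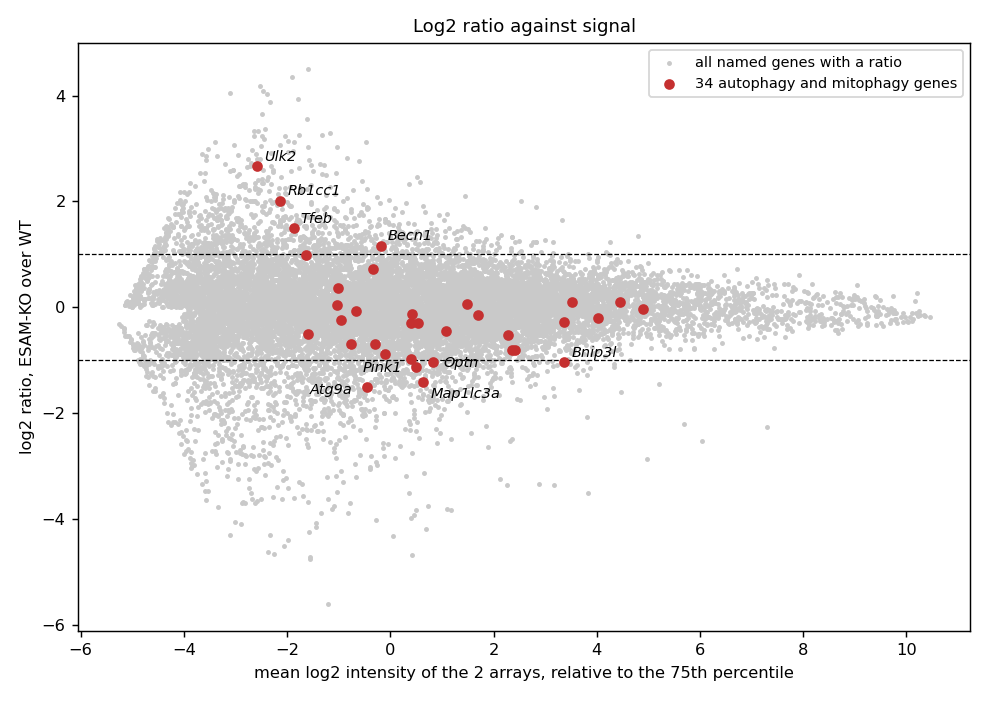
Log2 ratio of ESAM-KO over WT (vertical axis) against the mean log2 intensity of both arrays relative to their 75th percentiles (horizontal axis) for all named genes with a ratio (grey) and for the 34 autophagy and mitophagy genes (red), with the 9 genes past 2-fold (dashed lines) named. The 3 highest ratios, of Ulk2, Rb1cc1 and Tfeb, lie among dim probes, where the grey points spread widest, and Bnip3l lies where they are narrow.

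A further list held 52 genes of the same pathway, of which 50 had a ratio. In ESAM-KO, 7 of them were lower by more than 2-fold and 2 higher, beside 8.43% and 6.99% of all genes, and the median log2 ratio was -0.12. The lower genes were Tecpr1 (-2.96) and Plekhm1 (-1.63), which encode proteins that join autophagosomes to lysosomes, Calcoco1 (-1.58), Zfyve1 (-1.46), which marks the sites where autophagosomes form, Usp30 (-1.25), a mitochondrial deubiquitinase, Tfe3 (-1.12) and Rubcn (-1.11), which restrains the PI3-kinase complex. The higher genes were Mul1, a mitochondrial ubiquitin ligase, at 1.55, and Atg2b, a lipid transfer protein, which was not well above background in WT and was at least 2.11-fold higher. Most of these probes were dim. Tecpr1 read 104 and 16.6, Calcoco1 78.2 and 32.6, and Mul1 74.3 and 272. Of the 13 genes for fusion of autophagosomes with lysosomes, the other 11 were within 2-fold. None of the 7 genes with a ratio from the remaining ULK complex and its upstream kinases was past 2-fold.

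Markers of other blood cells also differed between the arrays. All 12 neutrophil genes were detected on both arrays, and 11 of them were past 2-fold and lower in ESAM-KO, with a median log2 ratio of -3.32 and summed intensities of 110125 in WT and 85797 in ESAM-KO. Csf3r, the gene that was not lower, read 50144 in WT and 75698 in ESAM-KO and so made up most of the ESAM-KO sum. Of 9 eosinophil, basophil and mast cell genes 5 were lower and 1, Ms4a2, was higher, with sums of 2648 and 264, and Mcpt8, Cpa3 and Fcer1a were not well above background on either array. Of 8 B cell genes 4 were lower, with sums of 587 and 233. The macrophage list, with 9 of 10 genes on the array, had sums of 7209 and 7883, with Vcam1 lower and C1qa higher by more than 2-fold, and C1qc and Mrc1 were not well above background on either array. Of 7 megakaryocyte genes 2 were lower and 2 higher, with sums of 593 and 1097. Of 7 T and NK cell genes 1 was lower, with sums of 2454 and 3551, and Cd3g, Cd8a and Klrb1c were not well above background on either array. Of 5 endothelial genes 1 was lower and 1 higher, with sums of 2374 and 2486, and Cdh5 was at background on both. All sums here are not scaled between the arrays, unlike the calls of lower and higher. With scaling, the log2 ratio of the sums was -0.19 for macrophages and -0.25 for endothelial cells. It was 0.21 for T and NK cells and 0.57 for megakaryocytes. In the macrophage, megakaryocyte, T and NK cell and endothelial lists, too, 1 gene made up most of each sum. It was Csf1r for macrophages (6554 and 7310.1) and Pf4 for megakaryocytes (389 and 699). For T and NK cells it was Nkg7 (1833 and 2465), and for endothelial cells Kdr (2056 and 2345). Of 18 erythroid genes, 8 were lower and none higher, with sums of 352006 and 306751. Hemgn, at a log2 ratio of -0.18, read 203188 and 224135 and so made up most of both erythroid sums. Slc4a1, the gene of the red cell anion exchanger band 3, was 7.31-fold lower, and Epb42, which encodes a membrane skeleton partner of band 3, at least 12.9-fold. Autophagy genes are expressed in all of these cells, and the part of other cells or of erythroid maturity in the ratios above was not tested.

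**Figure D5:**
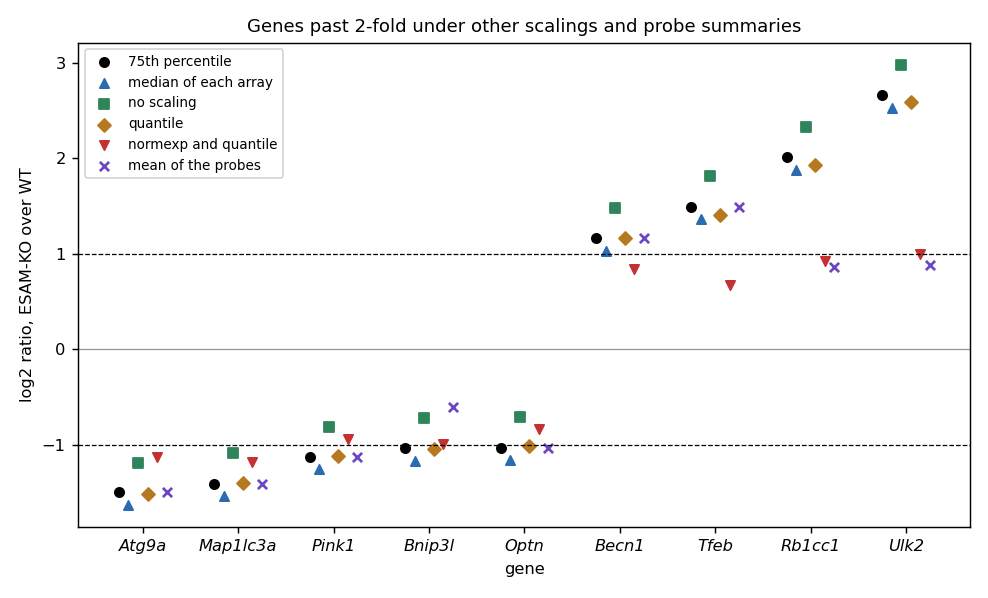
Log2 ratio of ESAM-KO over WT for the 9 genes past 2-fold, with each array scaled to its 75th percentile (black circles) and under other scalings, background correction and the mean of the probes of a gene (other symbols). Dashed lines mark 2-fold. Atg9a and Map1lc3a stayed past 2-fold under every setting shown, and no gene changed direction.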

How the data were processed

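The scans had been quantified by the authors in Agilent Feature Extraction 10.10.1.1, and the processed intensity of each spot, its error and its flags were taken from the files they deposited. In the deposited series table each intensity is the same to within 0.6%. The arrays shared a slide and a scan. Of 59305 spots that were not controls, 254 marked as outliers on either array were left out, and none was saturated. Well above background were 57.3% of the spots in WT and 61.1% in ESAM-KO. Log2 intensities were set relative to the 75th percentile of the array and averaged over the spots of a probe. A probe well above background in more than 50% of its spots on only 1 array gave only a limit, in which the dim side was its own signal or the lowest one counted as well above background, whichever was higher. Accessions were matched without versions to RefSeq of GRCm38.p6. Precision is limited by there being 1 array per genotype.

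The criterion of 2-fold is that of the study's methods. The members, the further lists and the rule of naming all members and those of the further pathway list past 2-fold were chosen with earlier results of these data known, and the motifs were chosen after the ratios had been seen. The alternatives were other scalings, quantile normalization, the series table, normexp background correction (offset of 50), different filters, probe summaries, and a 1.5-fold threshold. The normexp alternative used median spot signals. Counting was tested on simulated data, in which the changed genes were above background and changed well past 2-fold. Changes near 2-fold and probes of a gene that disagreed were not covered. Python 3.11.15, pandas 2.3.3, numpy 2.4.6, R 4.3.3 and limma 3.58.1 were used.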

Additional observations from a re-analysis of the deposited data

How the results depend on the processing

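With 1 array per genotype no replicate could be left out. No paired analysis was possible because the replicates needed for it, more than 1 array in a group, are lacking. The median log2 ratio of the 34 genes, -0.26, became 0.06 without scaling, which shifts all ratios alike. The 5 lower genes became 2 without scaling and 2 with normexp and quantile normalization (Atg9a and Map1lc3a in both). At 1.5-fold, 11 genes were lower and 6 higher, with no share of all genes at that threshold to set beside them. The 4 higher genes became 1 with normexp, Ulk2 as a limit with a log2 ratio of 1.00. They became 2 with the mean of the probes or, chosen after seeing the data, the least changed probe of a gene. Of the 52 further pathway genes, the 7 lower became 4 without scaling and 2 with normexp, and the 2 higher became 6 without scaling and 1 each with median scaling, quantile normalization, normexp, and only genes above background on both arrays. Over all genes, 1191 lower and 988 higher became 729 and 1804 without scaling, 486 and 236 with normexp, and 2308 and 1800 with no filter on dim probes. Without scaling, Bnip3l, Optn and Pink1 were within 2-fold. Among 339 values of single members under the alternatives other than the least changed probe, 286 differed from those reported by less than the scanner error, 53 differed by more, and none of the 9 genes past 2-fold turned its direction. Many of these values could hardly differ, so the counts do not measure how firm the ratios are. The filters on dim probes and outlier spots left member values as they were, and the series table holds the same signals. For the 22 genes with 1 probe, the mean of the probes is that probe. The WT signals of Ulk2, Rb1cc1 and Tfeb, 13.3, 22.9 and 32.8, were near background, and the probes of Ulk2 and of Rb1cc1 disagreed, which limits these ratios.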
